A study of Mus musculus with 96 samples.

Results

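Serpins are a superfamily of proteins named for their serine protease inhibitors. The genes described here are the 65 rows of the deposited gene table whose symbol begins with Serpin, out of 56941 rows in all. A further 5 rows whose symbols mark them as pseudogenes were left out. The 65 rows comprise 26 Serpina genes, 28 Serpinb genes and 11 genes of other clades, and they carry 64 symbols because Serpina3h stands on 2 rows. The members were chosen by name alone, so no measured value entered their selection.

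RNA was measured in 7 tissues of 2-month-old mice of 5 genotypes. The genotypes were the WT control and 4 reprogrammable mouse strains, 4Fj, 4FsB, 4Fk and 4FsA, in which transgenes carry the reprogramming factors, among them Pou5f1 (Oct4). Of the 96 libraries, 14 came from heart, 7 from spleen and 15 each from liver, kidney, brain, small intestine and skeletal muscle. The labels list 3 samples of each genotype in each tissue, except that the heart has 2 WT samples and the spleen has 3 WT, 1 4Fj and 3 4FsA samples. The sources used here do not give an inducing treatment, the promoter of each transgene or the sex of the animals. The columns of the gene table name the tissue and a running number but no genotype, so no library was assigned to a strain and no comparison of strains was made. Each library's Pou5f1 level was used instead as the measured axis within a tissue, and the table does not separate transgenic from endogenous Pou5f1 transcripts.

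Serpins inhibit their target by a conformational trap: the protease cleaves a flexible reactive centre loop, the loop inserts into the body of the inhibitor, and the protease is held in an inactive complex. The letters of that loop set which proteases a Serpin can catch. Hepatocytes secrete most of the plasma Serpins, among them the alpha-1-antitrypsins encoded by the Serpina1 genes, antithrombin (Serpinc1) and the acute-phase Serpina3 proteins. Clade B Serpins mostly stay inside cells, and a few family members carry hormones or chaperone collagen instead of inhibiting a protease. Serpina1 and Serpina3 exist in the mouse as tandem arrays of duplicated genes on chromosome 12.

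Levels are given as CPM, the estimated count of a gene divided by the library total and scaled to 1000000. Library totals ranged from 6624474 to 17882603, with a median of 11317947, so a count of 0 allows a level of up to 0.168 CPM in the deepest library and 0.453 CPM in the shallowest, counting error only. CPM is not corrected for gene length, so levels are compared across tissues and libraries, and between genes only for the Serpina1 copies, whose coding lengths are equal. The tissue labels were checked against marker genes chosen after the data were seen. Alb was at least 32793 CPM in every liver library and at most 3324 CPM in any other, Umod was at least 638 CPM in kidney and at most 4.17 CPM elsewhere, and Snap25 was at least 1524 CPM in brain and at most 20.8 CPM elsewhere. Small intestine was the uneven tissue. Its enterocyte gene Fabp2 was only 3.17 CPM in 1 library, and 2 of its libraries had more than 50% of their counts from mitochondrially encoded genes. Alb stood above 100 CPM in 4 libraries of other tissues, and fits that moved by over 1.5 times without them are given both ways. Counts from Y-linked genes were at or above 1 CPM in all but 7 of the 96 libraries, and in the small intestine in all 15.

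The 5 Serpina1 copies are shown first, because their levels differ between liver and kidney although their sequences are nearly the same. Their coding sequences are each 1242 bases long and 96.3 to 98.5% identical pair by pair, whereas Serpina1f, with 1236 coding bases, is only 55.9 to 56.8% identical to them. How reads that match several copies were assigned is not given in the sources used here, so the split among the 5 copies is uncertain and their sum is firmer. The stretch printed here spans coding bases 1099 to 1173 in the last coding exon, the part of the gene that codes for the reactive centre loop and the residues after it. Capitals mark the positions at which the 5 copies differ from each other. The 75 bases hold 19 of the 86 variable positions of the whole coding sequence (GENCODE transcripts, GRCm38 coordinates).
Serpina1a (chr12:103853744-103853818, minus strand): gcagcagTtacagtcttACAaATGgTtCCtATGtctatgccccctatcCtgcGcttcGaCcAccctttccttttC
Serpina1b (chr12:103728311-103728385, minus strand): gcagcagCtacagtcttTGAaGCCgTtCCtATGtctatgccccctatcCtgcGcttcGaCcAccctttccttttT
Serpina1c (chr12:103895081-103895155, minus strand): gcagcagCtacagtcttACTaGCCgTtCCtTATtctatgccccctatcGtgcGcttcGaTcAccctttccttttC
Serpina1d (chr12:103763749-103763823, minus strand): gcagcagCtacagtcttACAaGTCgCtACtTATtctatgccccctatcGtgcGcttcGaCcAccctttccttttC
Serpina1e (chr12:103947087-103947161, minus strand): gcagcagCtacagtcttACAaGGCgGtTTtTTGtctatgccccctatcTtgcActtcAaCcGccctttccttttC

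The promoters of the same 5 genes share a stretch just before the annotated start. Each stretch printed here is 89 bases long. Capitals mark GTTAAT, which begins 21 (Serpina1a), 26 (Serpina1b), 27 (Serpina1c), 16 (Serpina1d) and 78 (Serpina1e) bases before the start. These letters are a half-site of the palindrome bound by hepatocyte nuclear factor 1, a transcription factor of liver and kidney epithelium. GTTAAT was searched on both strands of the window from 250 bases before to 50 bases after each start. It occurs in 7.1% of 32851 such windows and in 11 of the 54 Serpin genes that have one. A match to these letters is a description of the sequence and does not show that a factor binds there (GRCm38.p6, RefSeq).
Serpina1a (chr12:103863626-103863714, minus strand): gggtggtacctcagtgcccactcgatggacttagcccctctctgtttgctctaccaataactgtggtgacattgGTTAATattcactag
Serpina1b (chr12:103738201-103738289, minus strand): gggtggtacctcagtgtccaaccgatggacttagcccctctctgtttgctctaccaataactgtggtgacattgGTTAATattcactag
Serpina1c (chr12:103904963-103905051, minus strand): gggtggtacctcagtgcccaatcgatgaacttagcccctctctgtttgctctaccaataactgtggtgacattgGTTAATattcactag
Serpina1d (chr12:103773635-103773723, minus strand): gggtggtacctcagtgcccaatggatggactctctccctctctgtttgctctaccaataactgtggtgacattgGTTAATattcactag
Serpina1e (chr12:103956961-103957049, minus strand): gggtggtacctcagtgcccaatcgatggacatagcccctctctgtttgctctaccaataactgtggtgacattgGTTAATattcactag

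A second set is shown because the genes Serpina3n, Serpina3c, Serpina3i and Serpina3f were all higher with Pou5f1 in liver, as described further on. Their promoters share the 15 bases CAGAGCACAGCTTGT, in capitals, which occur in 5 of 32851 windows (0.02%) and, among Serpin genes, only in these 4. The run is the longest that these promoters share before the start. It was sought after their values were known, so its rarity supports nothing. Serpina3h was also higher with Pou5f1 in liver but was not in this set and is not among the genes found to hold the run. The run begins 82 (Serpina3n), 79 (Serpina3c), 61 (Serpina3i) and 89 (Serpina3f) bases before the start, and each printed stretch is 67 bases long. In none of the 32851 windows did this run overlap GTTAAT (GRCm38.p6, RefSeq).
Serpina3n (chr12:104406586-104406652, plus strand): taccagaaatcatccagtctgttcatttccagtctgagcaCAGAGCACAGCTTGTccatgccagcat
Serpina3c (chr12:104153925-104153991, minus strand): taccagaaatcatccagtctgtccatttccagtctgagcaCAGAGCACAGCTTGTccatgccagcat
Serpina3i (chr12:104263021-104263087, plus strand): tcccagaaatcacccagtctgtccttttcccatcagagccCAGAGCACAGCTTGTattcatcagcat
Serpina3f (chr12:104214415-104214481, plus strand): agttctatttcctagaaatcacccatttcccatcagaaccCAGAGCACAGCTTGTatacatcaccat

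Serpin expression was concentrated in liver. Summed over the 65 genes, Serpins took a median 2.92% of all counts in liver (range 1.94 to 6.42%, n = 15), against 0.122% in spleen, 0.113% in kidney, 0.11% in small intestine, 0.056% in heart, 0.054% in brain and 0.046% in skeletal muscle. Of the 65 genes, 29 had a median of 10 CPM or more in at least 1 tissue, including 16 of the Serpina genes but only 4 of the Serpinb genes. With TMM-scaled library totals the ratio of the highest to the next tissue median moved by more than 1.5 times for 16 of the 29, so the size of such ratios is not firm. These 29 had their highest median in liver for 18 genes, in heart and spleen for 3 each, in small intestine and brain for 2 each, in kidney for 1 and in skeletal muscle for none. A median of 10 CPM or more was reached by 21 genes in liver, 13 in spleen, 11 in kidney, 9 in heart, 5 in brain, 5 in skeletal muscle and 4 in small intestine. Serpinb6a and Serpinh1 reached it in all 7 tissues and 12 genes reached it in only 1. At the other end, 26 genes had a median below 1 CPM in every tissue, 19 stayed below 1 CPM in every library, and 6 clade B genes (Serpinb3a, Serpinb3d, Serpinb6d, Serpinb9d, Serpinb9g and Serpinb9h) had a count of 0 in all 96 libraries.

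**Figure D1:**
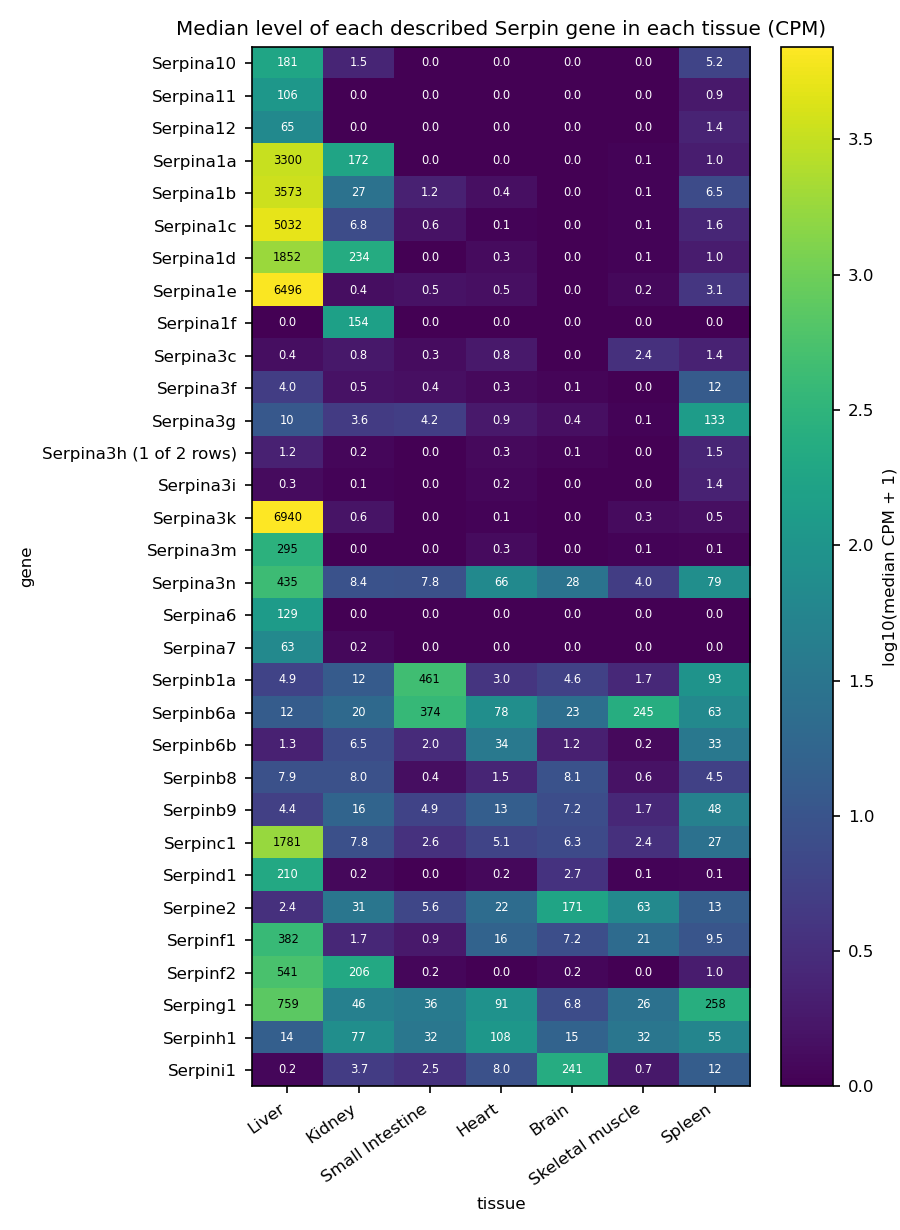
Median level of 32 Serpin genes (rows) in 7 tissues (columns). The number in each cell is the median CPM over the libraries of that tissue (15 each, 14 in heart, 7 in spleen) and the colour is log10(median CPM + 1). Lighter cells are higher, and 18 rows have their highest median in the liver column, whereas Serpina1f is seen in kidney, Serpini1 and Serpine2 are highest in brain, Serpinb1a is highest in small intestine and Serpina3g is highest in spleen.

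Each tissue was then compared with the mean of the other 6 in an edgeR quasi-likelihood fit over all 96 libraries, in which 20100 genes and 38 of the 65 Serpin rows passed the filter on low counts. A gene was called at a Benjamini-Hochberg adjusted p under 0.05 over all genes tested and a level at least 4-fold higher. No source used here says which libraries share an animal, so the p-values treat libraries as independent and measure the spread between these libraries. Libraries of different tissues may share animals: 6 of the 7 libraries without Y-linked counts carry the running number 1. In liver 25 of the 38 were called (65.8%), where 10.4% of all genes tested were called. In spleen 13 of the 38 were called (34.2%, against 11.3% of all genes). The shares lay near the background in skeletal muscle, with 5 calls (13.2% against 8.42%), in kidney, with 4 (10.5% against 9.92%), in heart, with 4 (10.5% against 8.44%), and in small intestine, with 4 (10.5% against 12.6%). In brain 4 were called (10.5%), below the 19.8% of all genes. Several calls rest on very low levels: the called gene's own median was below 1 CPM for 3 of the liver calls, 3 of the skeletal muscle calls, 3 of the spleen calls, and 1 each of the small intestine and heart calls.

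Among the elastase and chymase inhibitors of clade A, the alpha-1-antitrypsin genes stood far above every tissue other than kidney. The 5 copies summed to a median 18668 CPM in liver (12662 to 28695), 442 CPM in kidney (23.1 to 881), 14.9 CPM in spleen and at most 2.97 CPM in the remaining tissues. Serpina1a had a median of 3300 CPM in liver (1621 to 4250) and 172 CPM in kidney (2.05 to 499), a ratio of 19.2 with no overlap of the libraries. In the fit Serpina1a was higher in liver by 10.52 ± 0.61 (log2, SE) and in kidney by 5.07 ± 0.59 than the mean of the other 6 tissues. Without the 4 libraries of other tissues with over 100 CPM of Alb, described further on, these were 12.96 ± 0.36 and 7.52 ± 0.36. Serpina1d was higher in kidney by 6.02 ± 0.50 (7.53 ± 0.33 without those libraries), with a median of 234 CPM (17.5 to 389) against 1852 CPM in liver (876 to 3135). Serpina1c went from 5032 CPM in liver to 6.79 CPM in kidney, and Serpina1e from 6496 CPM to 0.385 CPM. Serpina1b lay between these, at 3573 CPM in liver and 26.9 CPM in kidney.

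The make-up of the 5-copy pool thus differed between the organs. In kidney Serpina1d gave a mean 49.9% ± 10.7 (SD, n = 15) of the pool and Serpina1a 40.8% ± 11.8. In liver the same genes gave 9.7% ± 4.4 and 16.3% ± 2.7. Serpina1e, Serpina1c and Serpina1b gave 30.8% ± 13, 24.4% ± 3.6 and 18.8% ± 4.6 in liver but 0.4% ± 0.4, 1.7% ± 1.0 and 7.3% ± 2.0 in kidney. In a 2-sided permutation test of the mean share with 100000 resamples, the adjusted p over the 5 copies was 2e-05 for each of them, the smallest the test can give. The 5 shares sum to 100 and are not independent of each other. The permutation test also treats liver and kidney libraries as independent, although they may share animals, and ignores any such pairing. The relation of the shares to coding similarity was not tested, and how shared reads were assigned is not known. Serpina1a is 98.5% identical to Serpina1c and 96.6% identical to Serpina1d.

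Serpina1e also split the liver libraries. It was 162 and 238 CPM in 2 libraries and between 4221 and 11197 CPM in the other 13, and its share of the pool ranged from 1.05 to 43.9%. Both libraries had no Pou5f1 count, and 1 of them was also the liver library without Y-linked counts. Serpina1a in the same 2 libraries was 3563 and 2631 CPM, within the range of the others. The genotype of these libraries is not known.

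**Figure D2:**
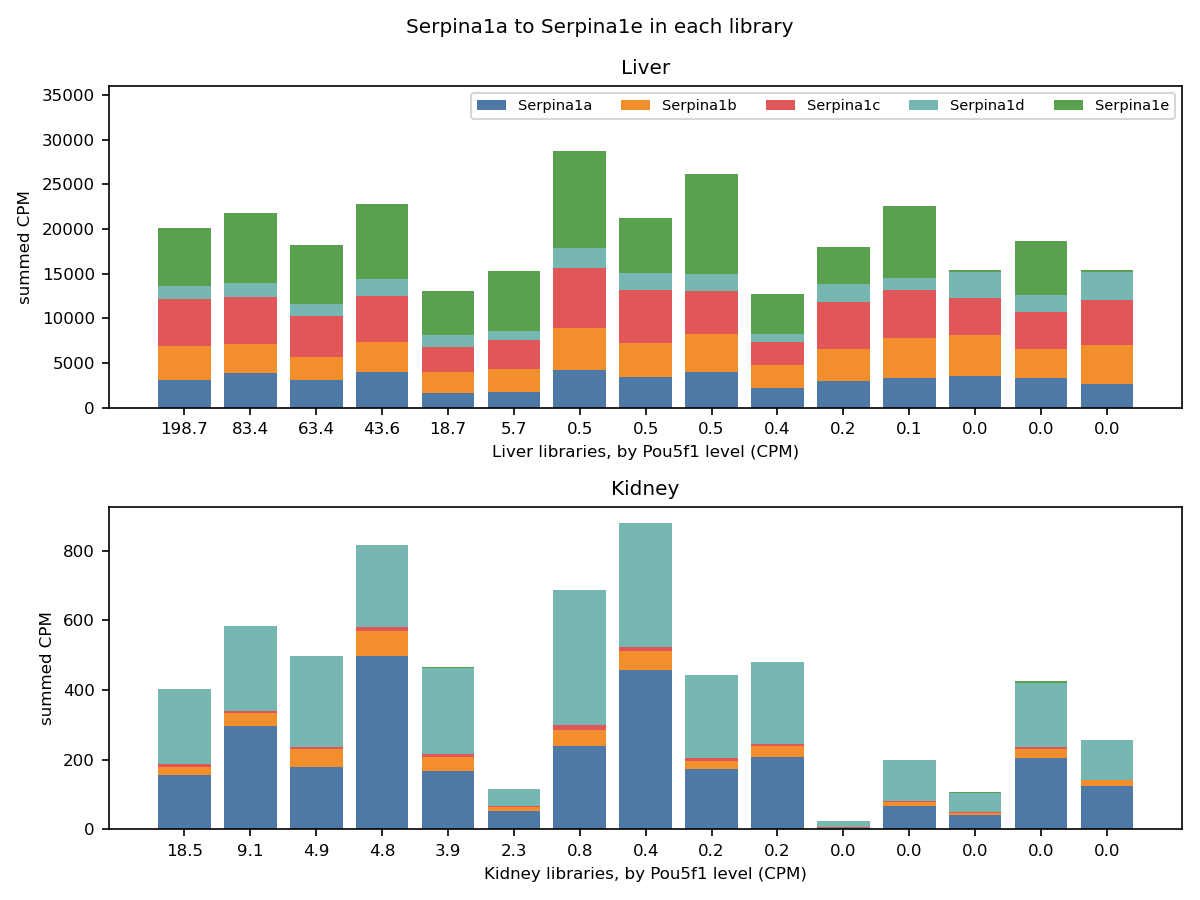
Summed level of Serpina1a to Serpina1e (vertical axis, CPM, linear from 0) in each of the 15 liver and 15 kidney libraries, ordered along the horizontal axis by Pou5f1 level, with 1 colour for each gene. Serpina1e is nearly missing from 2 liver bars, and the kidney bars consist almost wholly of Serpina1a and Serpina1d.

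Serpina1f, the distant relative in the same array, was confined to kidney among the tissues measured. Its median was 154 CPM in kidney (78.7 to 243), and it did not exceed 1.10 CPM in any library of another tissue, with a count-based difference of 12.25 ± 0.32 (log2) from the mean of the other 6. The kidney library without Y-linked counts had the lowest levels of Serpina1a (2.05 CPM), Serpina1d (17.5 CPM), Serpina1b (2.20 CPM) and Serpinf2 (46.8 CPM), while its Serpina1f, at 214 CPM, was among the higher values. Sex and strain cannot be told apart for that library.

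Of the Serpina3 genes, Serpina3k had a median of 6940 CPM in liver (2839 to 22346) and below 1 CPM in each other tissue. It was higher in liver by 12.13 ± 0.71 (log2), and by 14.16 ± 0.56 without the 4 libraries of other tissues with over 100 CPM of Alb. Serpina3m followed the same pattern at a lower level, with 295 CPM in liver (26.1 to 1759). Serpina3n, the mouse gene usually read as an acute-phase and injury marker, was broader: its medians were 435 CPM in liver, 79.4 in spleen, 65.6 in heart, 27.7 in brain, 8.39 in kidney, 7.84 in small intestine and 3.97 in skeletal muscle. Its libraries overlapped between neighbouring tissues, and within liver alone it ran from 77.9 to 24286 CPM. Serpina3g, an inhibitor of lysosomal cathepsins in leukocytes, had a median of 133 CPM in spleen (73 to 309), 12.8 times the liver median of 10.4 CPM and without overlap with any other tissue. With TMM-scaled totals these medians were 75.4 and 13 CPM, a ratio of 5.8. It was higher in spleen by 5.96 ± 0.26 (log2). Serpina3f was also called in spleen (4.15 ± 0.51), at 11.8 CPM (5.45 to 60.7), but its spleen libraries overlapped those of liver, and the TMM-scaled medians were 6.72 and 5.22 CPM.

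The hormone carriers and the remaining clade A genes were also highest in liver. Serpina6, the corticosteroid-binding globulin, had a median of 129 CPM in liver but ranged from 0.847 to 283 CPM there. Serpina7, the thyroxine-binding globulin, ranged from 11.9 to 1000 CPM around a median of 62.6. Serpina12 (vaspin) had 65.3 CPM (3.05 to 149) and Serpina11 had 106 CPM (46.4 to 374). These wide ranges within 1 tissue contrast with Serpinc1, whose liver libraries lay between 531 and 2548 CPM.

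Inhibitors of coagulation, fibrinolysis and complement were also led by liver, with a second site for some. Serpinc1, antithrombin, had 1781 CPM in liver, 67.2 times the next tissue (140.0 times with TMM-scaled totals), and was higher there by 8.46 ± 0.31 (log2). Serpind1, heparin cofactor II, had 210 CPM (24.1 to 607). Serpina10, the protein Z-dependent inhibitor, had 181 CPM (58.8 to 780). Serpinf2, the plasmin inhibitor alpha-2-antiplasmin, had 541 CPM in liver (240 to 1009) and 206 CPM in kidney (46.8 to 370), and these ranges overlapped. It was called in both organs, by 8.69 ± 0.44 and 6.29 ± 0.44 (log2), and without the 4 libraries of other tissues with over 100 CPM of Alb by 10.14 ± 0.32 and 7.74 ± 0.32. Serping1, the C1 inhibitor, was the broadest of this group: 759 CPM in liver, 258 in spleen, 91.4 in heart, 46.5 in kidney, 35.9 in small intestine, 26.3 in skeletal muscle and 6.81 in brain.

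The matrix and neural Serpins had their own tissues. Serpini1 (neuroserpin), which inhibits tissue plasminogen activator in the nervous system, had 241 CPM in brain (199 to 508) and 12.4 CPM in the next tissue, spleen, a difference of 6.26 ± 0.19 (log2) from the other 6. Serpine2 (protease nexin 1) had 171 CPM in brain (139 to 227) and 62.8 CPM in skeletal muscle (19.5 to 128), with no overlap, and was called in both (2.86 ± 0.19 and 2.57 ± 0.19). With TMM-scaled totals these medians were 106 and 103 CPM, so the difference between the 2 tissues depends on the scaling. Serpinh1 (the collagen chaperone HSP47) had 108 CPM in heart (40.2 to 264) and 77.3 CPM in kidney (30.9 to 159), and the ranges overlapped. It was higher in heart by 2.23 ± 0.20. Serpinf1 (pigment epithelium-derived factor) belonged with the liver genes, at 382 CPM (167 to 526) against 21.1 CPM in skeletal muscle.

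Intracellular clade B Serpins were low or silent in most tissues, with 4 exceptions. Serpinb1a, an inhibitor of neutrophil serine proteases, had 461 CPM in small intestine (125 to 1140), the spleen following at 92.9 CPM (73 to 106), and was higher in small intestine by 5.77 ± 0.35 (log2). The TMM-scaled medians were 704 and 50.1 CPM. Serpinb6a, whose human counterpart inhibits cathepsin G, had 374 CPM in small intestine (88.6 to 595) and 245 CPM in skeletal muscle (189 to 472). The order of these 2 tissues was not firm: the ranges overlapped, and with TMM-scaled totals the medians were 409 and 417 CPM. Serpinb6b had 34.1 CPM in heart and 33 CPM in spleen, but 40.1 and 18.2 CPM with TMM-scaled totals. Serpinb9, the inhibitor of granzyme B, had 48 CPM in spleen (32.6 to 74.9) and 16.3 CPM in kidney (8.48 to 37.4). Chosen after their values were seen, 2 lower genes are named: Serpinb5 (maspin), at 9.25 CPM in small intestine (0.489 to 56.1) and at most 2.54 CPM elsewhere, and Serpina9 at 8.05 CPM in brain.

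Liver Serpins also appeared in single libraries of other tissues together with other liver transcripts. A spleen library had 3324 CPM of Alb, with Serpina1a to Serpina1e at 243, 248, 296, 110 and 443 CPM and Serpina3k at 230 CPM. A skeletal muscle library had 2301 CPM of Alb, with Serpina1a to Serpina1e at 149, 122, 222, 65.1 and 291 CPM and Serpina3k at 315 CPM. A second muscle library had 215 CPM of Alb and 28.9 CPM of Serpina3k, and a heart library had 152 CPM of Alb and 40.6 CPM of Serpina3k. In the spleen, heart and first muscle library Serpina1e stood above Serpina1d, as in most liver libraries. Kidney libraries held more Serpina1d than Serpina1e and at most 39.9 CPM of Alb. The split among the copies is uncertain, and where these transcripts came from was not tested. Without these 4 libraries, an alternative chosen after seeing the data, 25 genes were still called in liver, 9 in place of 13 in spleen (Serpina1c, Serpina1e, Serpina6 and Serpinb9 were lost), 4 in place of 5 in skeletal muscle (Serpina1e and Serpina3k were lost and Serpinf1 gained), 6 in place of 4 in kidney (Serpina1b and Serpina10 gained), 5 in place of 4 in heart (Serpina3i gained) and 5 in place of 4 in brain (Serpind1 gained). The share of all genes called was not worked out for this fit, so these counts cannot be set against a background.

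**Figure D3:**
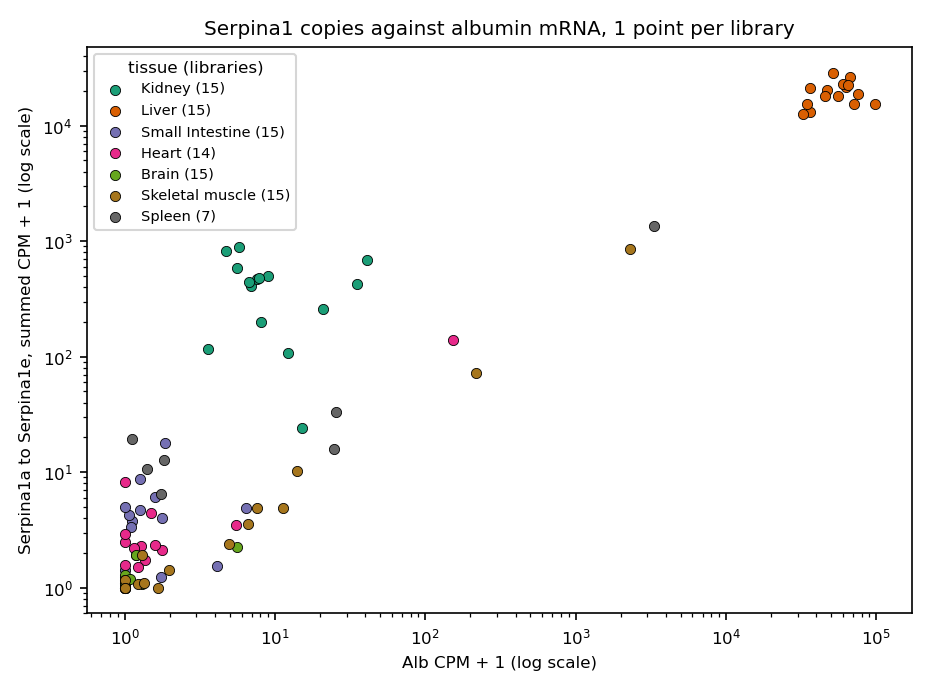
Summed level of Serpina1a to Serpina1e (vertical axis, CPM + 1, log scale) against Alb (horizontal axis, CPM + 1, log scale) for all 96 libraries, coloured by tissue. Liver libraries sit at the upper right, kidney libraries stand high on the vertical axis at low Alb, and 1 spleen, 2 muscle and 1 heart library lie between the other libraries of their tissue and the liver.

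The second question was how Serpin levels moved with Pou5f1 within a tissue. A slope on log2(Pou5f1 CPM + 1) was fitted across all genes in each tissue with at least 4 libraries at 1 CPM or more of Pou5f1 and no gap over 50% of its range, which were kidney, liver, small intestine and heart. A slope of 1 means a doubling of the gene for each doubling of Pou5f1 CPM + 1. Because the transgene carries Pou5f1 and the genotypes are unknown, strain, transgene and any change of cell make-up cannot be told apart along this axis. In bulk tissue, fewer cells of a type and less RNA per cell cannot be told apart either. The p-values of the slopes treat the libraries of a tissue as independent, although libraries of 1 strain may be alike.

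In liver, 32 of the 65 Serpin rows were tested. The slope was higher with Pou5f1 for 6 and lower for 5 at an adjusted p under 0.05, where 6.86% and 4.86% of all 14146 genes tested were called higher and lower. The 6 were 5 Serpina3 genes and Serpinb8. The 5 were Serpind1, Serpinf2, Serpinb6b, Serpinb9 and Serpinh1. The Serpin median slope was -0.088, against -0.007 over all genes. The 6 liver libraries with Pou5f1 above 1 CPM carry the running numbers 4 to 6 and 10 to 12. If each run of numbers is 1 strain, these libraries are not independent points, and the p-values do not allow for that.

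Serpina3n made the largest excursion in CPM. In the 15 liver libraries, ordered from the highest to the lowest Pou5f1, it stood at 131, 24286, 21105, 22524, 758, 252, 952, 201, 1912, 77.9, 146, 746, 376, 435 and 316 CPM. The 3 values from 21105 CPM upwards belong to the libraries with 83.4, 63.4 and 43.6 CPM of Pou5f1. The library with the most Pou5f1, 199 CPM, was among the lowest in Serpina3n. The slope was 0.74 ± 0.18 (SE; edgeR adjusted p = 0.0158). Without the library at 83.4 CPM of Pou5f1 the edgeR adjusted p was 0.0552. The values do not climb steadily with Pou5f1: 3 libraries stood apart from the other 12.

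The same 3 libraries carried the other Serpina3 genes. Serpina3i was 59.9, 68.5 and 30.4 CPM in them and at most 1.03 CPM in the other 12 (slope 1.30 ± 0.19, edgeR adjusted p = 0.00131). Serpina3h, on the row ENSMUSG00000121484, was 37.2, 38.7 and 24.6 CPM in them and at most 1.91 CPM in the others (0.75 ± 0.14, edgeR adjusted p = 0.00609). Serpina3f was 29.9, 39.9 and 13.6 CPM there and at most 7.31 CPM in the others (0.32 ± 0.10, edgeR adjusted p = 0.0402). Serpina3m, at 1290, 1097 and 1759 CPM, also had its 3 highest values in these libraries but did not pass (0.22 ± 0.14, edgeR adjusted p = 0.318). Serpina3c behaved otherwise: it was 3.78, 2.42, 1.76, 4.24, 0.69 and 2.62 CPM in the 6 libraries with most Pou5f1 and at most 1.01 CPM in the other 9 (0.53 ± 0.16, edgeR adjusted p = 0.0347). Coding sequences of Serpina3n and its relatives are 82.6 to 85.2% identical, and how shared reads were assigned is unknown, so the low levels of Serpina3i, Serpina3h and Serpina3f beside Serpina3n are uncertain. Serpina3k, of the same array and 82.6% identical, was 8393, 7551 and 13507 CPM in the 3 libraries and 2839 to 22346 CPM in the others, with a slope of -0.08 ± 0.11 (edgeR adjusted p = 0.666).

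Serpinb8, an intracellular Serpin, was 46.5, 47.8 and 27.6 CPM in the 3 libraries and 19.2, 10.6 and 8.50 CPM in the remaining 3 with Pou5f1 above 1 CPM, against 0.889 to 8.82 CPM in the other 9. Its slope was 0.41 ± 0.09 (edgeR adjusted p = 0.00813). Serpinb1a was 161 and 140 CPM in the libraries with 5.71 and 18.7 CPM of Pou5f1, 43.9 CPM in the library with 199 CPM, and at most 42 CPM in the other 12 (0.61 ± 0.25, edgeR adjusted p = 0.109).

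Serpind1, the heparin cofactor, was 163, 28.9, 24.1, 66.6, 81.9 and 83.2 CPM in the 6 libraries with Pou5f1 above 1 CPM and 163 to 607 CPM in the other 9, and its slope was -0.38 ± 0.09 (edgeR adjusted p = 0.0181). The library with 199 CPM of Pou5f1 again stood with the libraries of little Pou5f1. Serpinf2 was 240 to 541 CPM in the 6 and 521 to 1009 CPM in the 9 (-0.20 ± 0.06, edgeR adjusted p = 0.0497). Serpinb9 was 1.83 to 4.37 CPM in the 6 and 2.82 to 16.7 CPM in the 9 (-0.29 ± 0.07, edgeR adjusted p = 0.0157). Serpinb6b, at 0.354 to 1.27 CPM in the 6 and 0.665 to 6.42 CPM in the 9, had a slope of -0.37 ± 0.09 (edgeR adjusted p = 0.0208). Serpinh1 was 3.18 to 14.5 CPM in the 6 and 5.89 to 36 CPM in the 9 (-0.23 ± 0.07, edgeR adjusted p = 0.0497). Of 3 tested cytotoxic lymphocyte markers, Gzmb (-0.69 ± 0.19) and Nkg7 (-0.46 ± 0.14) were also lower, and the summed level of all 6 listed ranged from 0.53 to 12.8 CPM over the liver libraries. Their part in the Serpinb9 and Serpinb6b slopes was not tested.

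Plasma Serpins outside the called set moved unevenly in the same 3 libraries. Serpinc1 was 594, 531 and 768 CPM in them, 871 and 1067 CPM in the libraries with 5.71 and 18.7 CPM of Pou5f1, and 1326 to 2548 CPM in the other 10. Its slope of -0.19 ± 0.07 missed the threshold (edgeR adjusted p = 0.0692). Serpina6 was 0.898, 0.847 and 1.68 CPM in the 3 libraries and 11.4 and 16 CPM in the next 2, but 181 CPM in the library with most Pou5f1 and 6.95 CPM in 1 with 0.483 CPM. Its slope was -0.24 ± 0.17 (edgeR adjusted p = 0.367). Serpina1a, at 1621 to 4250 CPM in all 15, showed no difference that passed (-0.05 ± 0.06, edgeR adjusted p = 0.675), and neither did Serping1 (-0.06 ± 0.07, edgeR adjusted p = 0.613).

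**Figure D4:**
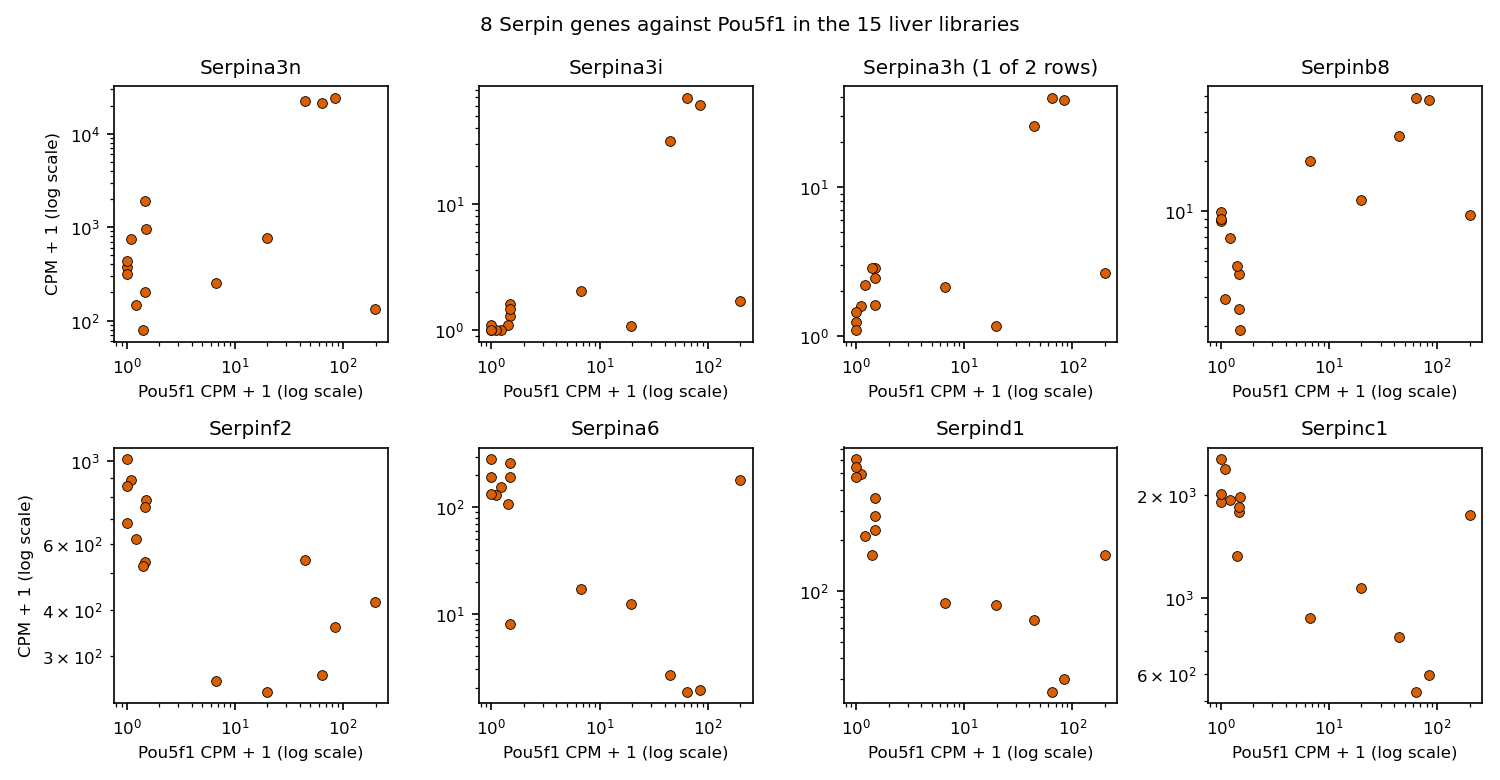
Levels of 8 Serpin genes (vertical axes, CPM + 1, log scale) against Pou5f1 (horizontal axes, CPM + 1, log scale) in the 15 liver libraries, 1 panel for each gene and 1 point for each library. In the panels of Serpina3n, Serpina3i and Serpina3h the libraries at 43.6, 63.4 and 83.4 CPM of Pou5f1 lie high and the library at 199 CPM lies low, and Serpina6, Serpind1 and Serpinc1 show the same libraries low.

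Leaving out each liver library in turn showed how far single libraries carried these calls. Serpina3h and Serpinb8 were called in 15 of 15 such fits and Serpina3i in all 14 in which it passed the filter. Serpina3n, Serpinb6b, Serpinb9 and Serpind1 were called in 14 of 15 and lost without the library at 83.4 CPM of Pou5f1. Serpina3c was called in 5, Serpina3f in 4, Serpinf2 in 3 and Serpinh1 in 2 of the 15. Without the library at 83.4 CPM of Pou5f1, 3 genes were higher and 0 lower. Summed neutrophil and myeloid markers (8 genes) were 185, 266 and 77 CPM in the 3 libraries and 1.30 to 91.9 CPM in the other 12, and none of the 5 of these genes that were tested was called. S100a9 (138, 199 and 43 CPM, at most 38.9 CPM in the others), Retnlg (18.8, 19.3 and 8.30 CPM, at most 3.40 CPM), Ngp and Ltf (1.89, 18.0 and 5.30 CPM, at most 1.75 CPM) were higher in all 3 than in any other liver library. S100a8 (23.0, 23.4 and 13.8 CPM, up to 48.8 CPM in the others) and Camp (0.359, 0.071 and 0.353 CPM, up to 1.31 CPM) were not. Mpo was at 0 in all 3 and Elane in 2. The part of these markers in the result was not tested.

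Genes of the same proteolytic system, taken from lists chosen with earlier results known, gave this count in liver. Over all genes tested there, 6.86% were called higher and 4.86% lower. Of 16 tested proteases targeted by plasma Serpins, 0 were higher and 4 lower, namely the neutrophil protease Prtn3 (-1.06 ± 0.31), the coagulation factors F7 (-0.21 ± 0.06) and F10 (-0.21 ± 0.07), and Tmprss6 (-0.22 ± 0.06), a hepatocyte membrane protease. Their median slope was -0.122. Of 5 plasminogen activators and receptors, 2 were higher, Plat (0.72 ± 0.14) and the urokinase receptor Plaur (0.41 ± 0.10), and urokinase itself, Plau, was lower (-0.54 ± 0.15). Of 18 other protease inhibitors, the metalloprotease inhibitor Timp1 (0.90 ± 0.17) and the trypsin inhibitor Spink1 (0.82 ± 0.19) were higher, and Mug2 (-0.43 ± 0.09) and Tfpi2 (-0.34 ± 0.08) were lower. Among 12 collagens and folding partners of Serpinh1, Crtap was higher (0.28 ± 0.08) and Col3a1 (-0.48 ± 0.12), Col1a2 (-0.29 ± 0.08) and Plod1 (-0.15 ± 0.05) were lower. Of 7 fibroblast and matrix markers 3 were lower and 0 higher, and their sum ranged from 96.1 to 536 CPM over the liver libraries. Of 10 hepatocyte markers, 1 was lower (Cps1, -0.34 ± 0.10). Of 7 tested granzymes and lysosomal cathepsins, 0 were higher and 1 lower.

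By role, the clade A elastase and chymase inhibitors had 13 members tested in liver, 5 higher and 0 lower. Hormone carriers and related clade A genes had 6 tested and none called, the coagulation, fibrinolysis and complement group had 6 tested, 0 higher and 2 lower, and the matrix and neural group had 4 tested, 0 higher and 1 lower. Agt, a non-inhibitory relative that encodes angiotensinogen, was not called in liver. The shares over all genes tested in liver were 6.86% higher and 4.86% lower.

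In small intestine 20 Serpin rows were tested. Serpina3n was higher with Pou5f1 and Serpinb6a and Serpinb1a were lower, where 15.4% and 11.5% of 15738 genes were called higher and lower, so the Serpin counts of 1 and 2 were not above the background. Serpina3n was 89.4, 273 and 335 CPM in the libraries with 139, 122 and 75.5 CPM of Pou5f1 and at most 36.6 CPM in the other 12. Its slope was 0.58 ± 0.13 (edgeR adjusted p = 0.00392). In the same 3 libraries Serpina3k was 5.04, 15.3 and 12.8 CPM, against at most 0.753 CPM in the others. These 3 intestine libraries carry the same running numbers as the 3 liver libraries with most Serpina3n. The labels do not say whether they share animals, so the liver and intestine slopes may not be independent.

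The clade B genes Serpinb6a and Serpinb1a ran the other way. Serpinb5 (0.28 ± 0.11, edgeR adjusted p = 0.0753) and Serpinb8 (0.32 ± 0.15, edgeR adjusted p = 0.135) had slopes above 0 that did not pass. Those of Serpinb6b (-0.16 ± 0.18) and Serpinb9 (-0.11 ± 0.14) were below 0 and did not pass either. Serpinb6a was 156, 194 and 234 CPM in the 3 libraries with most Pou5f1 and 88.6 to 595 CPM in the others (slope -0.28 ± 0.06, edgeR adjusted p = 0.00373). Serpinb1a was 125, 306 and 232 CPM in them and 174 to 1140 CPM in the others (-0.28 ± 0.09, edgeR adjusted p = 0.0325). For both genes the ranges overlapped. Without the libraries farthest from the Pou5f1 median, which were the 2 with most Pou5f1, none of the 3 passed, where 2.27% and 1.39% of all genes were called higher and lower: edgeR adjusted p was 0.0798 for Serpina3n, 0.219 for Serpinb6a and 0.612 for Serpinb1a.

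Cell markers moved with the same libraries. Summed enterocyte markers (6 genes) were 109 to 721 CPM in the 3 libraries with most Pou5f1 and reached 32904 CPM elsewhere, and 5 of the 6 were lower with Pou5f1. Summed squamous epithelium markers (7 genes) were 1645, 725 and 954 CPM in the 3 libraries and at most 230 CPM in the others, and 3 of 4 tested were higher. Krt6a made up most of that sum, and the defining markers Krt5 and Trp63 were at most 0.634 CPM in the 3 libraries. Summed neutrophil and myeloid markers were 350, 158 and 173 CPM there and at most 6.89 CPM in the others, and 3 of 3 tested were higher. Ltf made up most of it, Elane was at 0 in all 3 and Mpo in 2. The part of these shifts in the Serpin slopes was not tested. Of 6 tested proteases targeted by plasma Serpins, Proc and Klkb1 were lower. Of 4 plasminogen activators and receptors, Plaur (0.60 ± 0.13) was higher and Plgrkt (-0.29 ± 0.08) lower. Of 11 other protease inhibitors, Timp1 (0.57 ± 0.20), Tfpi and Cst3 were higher and Spink1 (-0.69 ± 0.22) was lower. Of 7 granzymes and lysosomal cathepsins, 0 were higher and 3 lower. The shares over all genes tested were 15.4% higher and 11.5% lower. Serpini2, a pancreatic Serpin named after its value was seen, was 15.3 CPM in 1 intestine library, whose summed pancreatic acinar markers were 38931 CPM, and 0 in the other 14.

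In heart 21 Serpin rows were tested, of which 1 was called higher and 0 lower with Pou5f1, where 0.343% and 1.24% of 14562 genes were called. With the mitochondrial share or Y-linked counts in the fit 0 were called higher, where 0% and 0.275% of all genes were, and leaving out each library in turn gave 0 in 10 of 14 fits and 1 to 3 in the others. Serpina3n was 245, 422, 468, 15.7, 94.3, 106, 33.3, 312 and 108 CPM in the 9 libraries with Pou5f1 and 14.7, 5.27, 4.40, 5.43 and 36.8 CPM in the 5 without. The groups overlapped. Its slope of 1.39 ± 0.43 did not pass (edgeR adjusted p = 0.0944), nor did those of Serpina3m (1.72 ± 0.49, edgeR adjusted p = 0.0764) and Serpina3i (1.75 ± 0.53, edgeR adjusted p = 0.0933), which were at most 4.99 CPM. Serpinh1 was 136 to 264 CPM in the 5 libraries without Pou5f1 and 40.2 to 192 CPM in the 9 with it, and its slope of -0.34 ± 0.15 did not pass (edgeR adjusted p = 0.211). The mitochondrial share of counts was 32.6 to 40.2% in the 5 libraries without Pou5f1 and 29.6 to 33.0% in the other 9. With that share in the fit, 0% of 14562 genes were called lower, as well as 0% higher, and no cause of this was tested. Of the heart's endothelial markers, Kdr was lower with Pou5f1 (-0.71 ± 0.09).

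In kidney 25 Serpin rows were tested and 0 were called in either direction, where 0.019% of 15775 genes were called higher and 0% lower. At an unadjusted p under 0.05, edgeR gave 3 higher (Serpina3n, Serpinb1a and Serpinb8) and 0 lower, and DESeq2 called 0 after adjustment. Serpina3n had a slope of 0.97 ± 0.43 (edgeR adjusted p = 0.905): it was 257 CPM in the library with 4.79 CPM of Pou5f1 but 0.60 CPM in the library with most, 18.5 CPM.

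**Figure D5:**
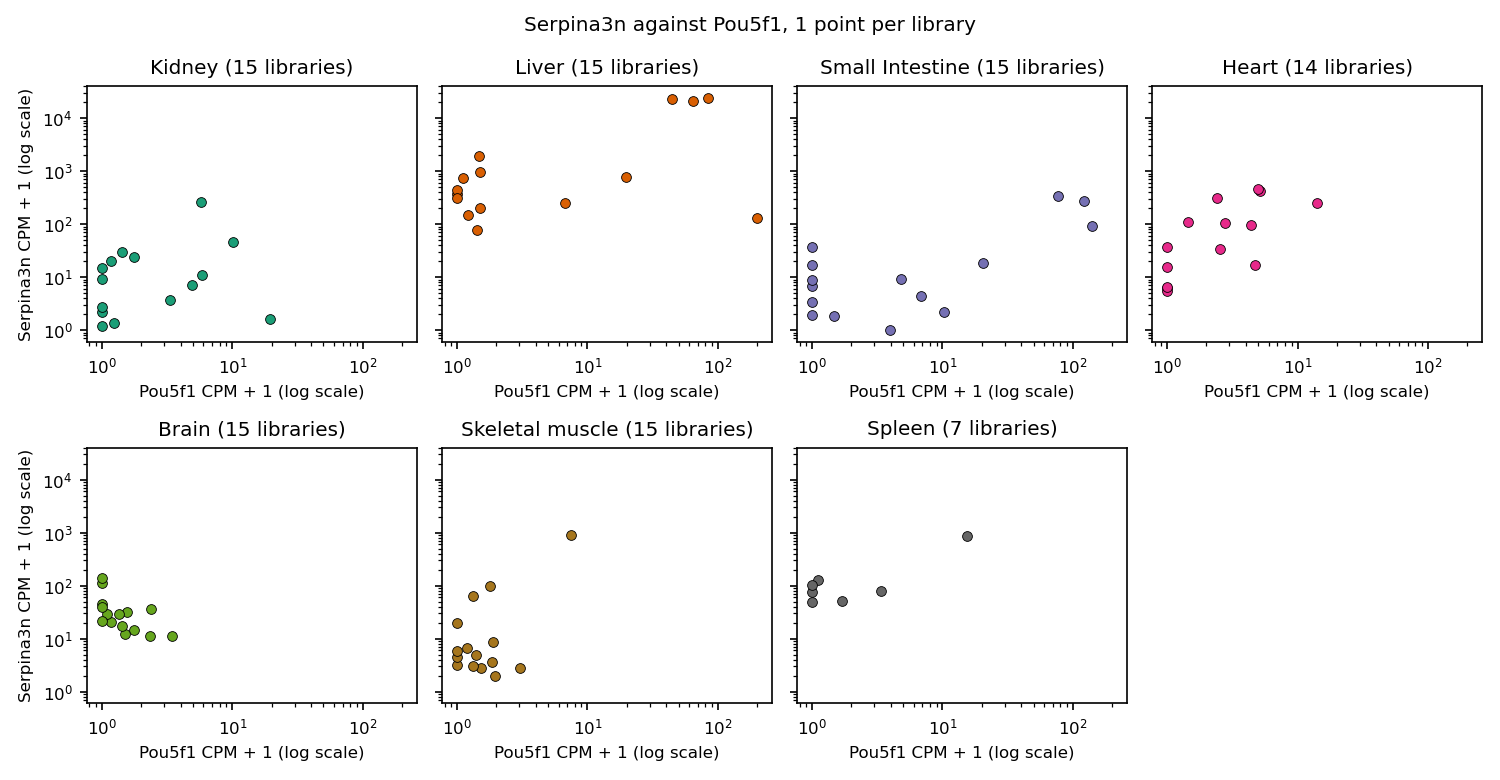
Serpina3n (vertical axes, CPM + 1, log scale) against Pou5f1 (horizontal axes, CPM + 1, log scale), 1 panel for each of the 7 tissues and 1 point for each library. Liver and small intestine each show 3 libraries high in both genes, heart shows a spread from 4.40 to 468 CPM, and the liver library with 199 CPM of Pou5f1 lies at 131 CPM of Serpina3n. The 3 libraries high in both genes carry the same running numbers in liver and small intestine.

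Slopes were then compared among kidney, liver, small intestine and heart. The test treats libraries as independent. The liver and intestine libraries with most Serpina3n carry the same running numbers, however, and may come from the same animals. Of 32 Serpin rows tested, 7 differed at an adjusted p under 0.05, where 16.8% of 16198 genes did. Serpina3n was not among them (edgeR adjusted p = 0.649), and its slope was above 0 in each of the 4 tissues. Serpinb1a did differ (edgeR adjusted p = 0.0116), with slopes of 0.61 in liver, 0.30 in kidney, 0.01 in heart and -0.28 in small intestine. Serpinb6a also differed (edgeR adjusted p = 0.0295), with slopes of 0.12 in kidney, 0.05 in heart, -0.07 in liver and -0.28 in small intestine. Without the heart library with 152 CPM of Alb, 5 differed, and Serpina1a and Serpina1c were no longer among them. Of the genes that differed, Serpina3k, Serpina3m, Serpina1a and Serpina1c were too low to be tested by themselves in some of the 4 tissues.

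Brain, skeletal muscle and spleen had too few libraries with Pou5f1 for a slope, and their values are given without a test. In spleen the library with 14.3 CPM of Pou5f1 had 878 CPM of Serpina3n, against 47.2 to 129 CPM in the other 6, and 23.3 CPM of Serpina3c, against at most 2.35 CPM. In skeletal muscle the library with most Pou5f1, 6.45 CPM, had 909 CPM of Serpina3n, but it is the library with 2301 CPM of Alb. A further 2 muscle libraries reached 95.9 and 63.7 CPM of Serpina3n with less than 1 CPM of Pou5f1.

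In brain, 3 libraries stood apart. They had no Pou5f1 count, but some of the other 12 brain libraries had none either. Serpinb1a was 36.6, 32.7 and 38.9 CPM in the 3, against at most 7.45 CPM in the other 12. Serpinb6a was 61.2, 84.1 and 81 CPM in these 3, against 18.7 to 32 CPM, Serpinb9 was 21.4, 24.8 and 26.7 CPM, against at most 9.21 CPM, and Serpini1 was 374, 447 and 508 CPM, against 199 to 309 CPM. Serpinc1 was lowest in 2 of them, at 0.728 and 0.704 CPM. Summed astrocyte markers (4 genes) were 1871, 2172 and 1345 CPM in these libraries, against 506 to 948 CPM in the others. Of these 3 libraries, 2 had no Y-linked counts. The part of the astrocyte markers in these values was not tested.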

How the data were processed

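The deposited table holds estimated counts per gene for 96 libraries of mouse tissue RNA, as the authors deposited them, with 26.8% of the values above 0 not whole (tolerance 1e-06). Per the labels' protocols, RNA came from frozen tissue. Per the submitters' processing notes the build was GRCm39 and DESeq2 was used. No source read here names an aligner, a counter, an annotation or a strand setting. Rows without a gene name (310) held at most 0.113% of a library's counts. They were kept among all genes tested where they passed the filter on low counts.

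CPM was computed with Python 3.11.15. Counts were rounded and tested with edgeR 4.0.16 in R 4.3.3 (TMM, filterByExpr, quasi-likelihood, Benjamini-Hochberg over all genes tested), with DESeq2 1.42.0 as an alternative. Tissues were compared with the mean of the other 6 in 1 fit. Slopes on log2(Pou5f1 CPM + 1) were fitted within tissues. Values are named for genes with a tissue median of at least 10 CPM or called on Pou5f1, and others were named after their values were seen. The members, gene lists and tests were chosen with earlier results of these data known. The scripts were tested on simulated data. Promoters come from a RefSeq table on GRCm38.p6 and coding sequences from GENCODE transcripts on GRCm38, not the build of the counts, and 54 Serpin genes matched the promoter table. Alternatives changed the normalization, the filter, the pseudocount (0.1), the fold (2-fold), the scale of Pou5f1, library totals without mitochondrial genes, mitochondrial and Y-linked terms, the running number of the columns as a block, and the libraries included. The Y-linked term and the running number as a block were chosen after seeing the data. So were leaving out non-liver libraries with over 100 CPM of Alb and leaving out each library in turn. Each library is 1 sample of its tissue, and depth sets a limit of 0.168 to 0.453 CPM for a count of 0. The values of 1 Serpin gene are not reported here.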

Additional observations from a re-analysis of the deposited data

Results flagged for a closer look

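Slopes on Pou5f1 differed among kidney, liver, small intestine and heart for 7 Serpin genes in edgeR's test of the difference. That test treats libraries as independent, although libraries of different tissues may share animals. The adjusted p was 0.00358 for Serpina3k, 0.00384 for Serpina3m, 0.00705 for Serpina1c, 0.0112 for Serpina1a, 0.0116 for Serpinb1a, 0.0295 for Serpinb6a and 0.0476 for Serpina3f. Serpina3m had slopes of 0.22 in liver and 1.72 in heart, and Serpina3f of 0.32 in liver, 1.74 in heart, 0.07 in small intestine and -0.58 in kidney. Without the heart library with 152 CPM of Alb, the adjusted p was 0.788 for Serpina1a and 0.194 for Serpina1c. In the fits by tissue, Serpina3k and Serpina1a passed the filter on low counts only in kidney and liver. Serpina3m passed it only in liver and heart, and Serpina1c in each but heart. The differences for these genes therefore rest in part on tissues where their counts were near 0.

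In spleen, the highest library stood far from the other 6 for 14 of 28 genes examined. Chance flags about 1 in 20 groups of normally distributed values. The rate for CPM values, which are skewed and often near 0, was not worked out, so the count has no background. The genes also share the same 7 libraries. In the library with 3324 CPM of Alb the highest values were Serpina1a 243 CPM (next 3.45), Serpina1b 248 CPM (next 15.9), Serpina1c 296 CPM (next 6.92), Serpina1d 110 CPM (next 2.73) and Serpina1e 443 CPM (next 4.49). In the same library Serpina3k was 230 CPM (next 4.26), Serpina6 7.22 CPM, Serpina7 8.08 CPM, Serpinc1 104 CPM (next 28.6), Serpind1 21.0 CPM (next 0.484) and Serpinf2 48.3 CPM (next 1.67). The summed neutrophil and myeloid markers of that library were 2159 CPM. The library with 14.3 CPM of Pou5f1 was highest for Serpina3n, at 878 CPM (next 129), and Serpine2, at 37.4 CPM (next 16.3). Serpina1f was 1.10 CPM in the library with 0.688 CPM of Pou5f1 and 0 in the others.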

How the results depend on the processing

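With 2-fold in place of 4-fold, 7 Serpin genes were called in kidney, 7 in heart and 10 in skeletal muscle. No share of all genes was worked out at that fold, for fits leaving out 1 library or with the running number as a block. In liver, the genes lower with Pou5f1 numbered 3 with Y-linked counts in the fit (3.1% of all genes) and 8 by DESeq2 (9.28%, against 4.86%). In small intestine, the genes higher numbered 3 with no filter on low counts (12.5% of all genes). They numbered 0 without the 2 libraries farthest from the Pou5f1 median (2.27%) and 0 by DESeq2 (17%), which gave no adjusted p for Serpina3n. The genes lower there numbered 0 without those 2 libraries (1.39%), and 1 with ranks of Pou5f1 (9.3%) or a pseudocount of 0.1 (10.1%). In heart, the genes higher numbered 2 with ranks (0.975% of all genes), 5 with a pseudocount of 0.1 (3.91%), 0 with the mitochondrial share (0%), 0 with Y-linked counts (0.275%) and 5 by DESeq2 (2.72%, against 0.343%). Leaving out each library in turn gave 3 to 7 higher and 0 to 8 lower in liver, 1 to 3 higher and 1 to 2 lower in small intestine, and 0 to 3 higher in heart. The cause was not tested. Of 104 single-gene slopes under other settings, 85 stayed on their side of the threshold, 19 no longer passed and 0 reversed. All 15 small intestine libraries had Y-linked counts, so that term was not fitted there. The running numbers of the columns are not tied to animals by the labels, and 132 of 261 pairs of libraries from different tissues with the same number deviated from their tissue means with a correlation over 0.1 (472 of 3662 pairs with different numbers). With that number as a replicate block, an alternative chosen after seeing the data, 8 in place of 13 Serpin genes were called in spleen, and 3 to 24 in the other tissues, each within 1.5 times. Depth limits statements below 0.453 CPM.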
